A study of Arabidopsis thaliana with 4 samples.

Results

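Cytosolic ribosomal proteins are the proteins that, with the ribosomal RNAs, build the ribosomes of the cytoplasm, and in plants they are made from nuclear genes. The genes described here are the 47 of the 32548 in the deposited expression table whose locus identifiers stand in a fixed list, with 22 for the large subunit (RPL proteins and the stalk base protein P0) and 25 for the small subunit (RPS proteins and the ribosome-bound scaffold RACK1A). The list names genes by function and uses no measured value, but it was put together with earlier results of these data known. It holds some of the paralogs of 36 proteins, and a further 185 genes that the annotation names as ribosomal and that are not in it were used for comparison.

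RNA sequencing was done on Arabidopsis thaliana seedlings of the Col-0 wild type (n = 2) and of the homozygous uba2c(-/-) mutant (n = 2). The mutation itself is not described further in the labels. Seedlings were 2 weeks old and grew on Murashige and Skoog plates, with 16 h of light at 23 °C and 8 h of darkness at 22 °C. UBA2C (AT3G15010) is annotated as an RNA-binding protein with an RNA recognition motif. Each value is a read count that the authors had scaled for library size, and the libraries held 19720586 to 19847651 recovered reads. As a check of the labels, UBA2C itself stood at 799 and 771 in wild type and at 209 and 234 in uba2c, a log2 fold change of −1.83 (limma adjusted p = 2.64e-06). All 47 members passed the filter on low values (1 or more in 2 or more libraries), as did 22439 genes in all.

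The large subunit forms peptide bonds and the small subunit reads the messenger RNA. Each ribosome needs a matched set of both, and Arabidopsis encodes nearly every ribosomal protein in a small family of paralogs, of which often a subset is active in a tissue. Demand for ribosomes is high in growing tissue, and the kinase TOR couples it to nutrients and energy. Many Arabidopsis ribosomal protein genes carry short promoter elements called site II, which TCP transcription factors can bind, and the telo box. Loss of single members is known for embryo lethality or for pointed first leaves.

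The promoters of 6 members are shown because these genes lead the changes (RPS10B, RPL5A) or are paralogs that share or do not share a change (RPL3A with RPL3B, RPS5A with RPS5B). Each is the 250 bases before the annotated gene start in RefSeq's TAIR10.1 genome, written 5′ to 3′ on the gene's strand, with the site II letters TGGGCC or TGGGCT and the telo box letters AAACCCTAA, on either strand, in capitals. The regions are chr5:16610693-16610942 (RPS10B, minus strand), chr3:9271466-9271715 (RPL5A, minus), chr1:16266303-16266552 (RPL3A, plus), chr1:22723153-22723402 (RPL3B, minus), chr3:3779546-3779795 (RPS5A, minus) and chr2:15649472-15649721 (RPS5B, minus).
RPS10B: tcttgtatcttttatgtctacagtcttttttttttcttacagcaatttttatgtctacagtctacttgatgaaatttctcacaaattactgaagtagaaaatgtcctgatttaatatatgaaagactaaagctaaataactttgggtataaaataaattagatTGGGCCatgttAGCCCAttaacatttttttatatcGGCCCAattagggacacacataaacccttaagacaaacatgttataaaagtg
RPL5A: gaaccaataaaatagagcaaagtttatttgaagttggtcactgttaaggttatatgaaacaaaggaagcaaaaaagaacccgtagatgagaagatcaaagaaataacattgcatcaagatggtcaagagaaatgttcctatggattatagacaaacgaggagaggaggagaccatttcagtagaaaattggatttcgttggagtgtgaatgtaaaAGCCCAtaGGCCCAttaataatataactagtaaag
RPL3A: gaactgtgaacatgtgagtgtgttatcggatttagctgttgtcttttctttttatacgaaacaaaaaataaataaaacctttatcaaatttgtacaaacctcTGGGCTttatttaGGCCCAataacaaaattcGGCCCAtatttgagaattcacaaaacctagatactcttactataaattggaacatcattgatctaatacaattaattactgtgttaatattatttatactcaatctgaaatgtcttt
RPL3B: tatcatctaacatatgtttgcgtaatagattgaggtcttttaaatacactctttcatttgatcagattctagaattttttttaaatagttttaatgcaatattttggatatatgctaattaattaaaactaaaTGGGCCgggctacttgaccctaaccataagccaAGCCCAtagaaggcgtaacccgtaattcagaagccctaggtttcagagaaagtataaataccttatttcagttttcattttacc
RPS5A: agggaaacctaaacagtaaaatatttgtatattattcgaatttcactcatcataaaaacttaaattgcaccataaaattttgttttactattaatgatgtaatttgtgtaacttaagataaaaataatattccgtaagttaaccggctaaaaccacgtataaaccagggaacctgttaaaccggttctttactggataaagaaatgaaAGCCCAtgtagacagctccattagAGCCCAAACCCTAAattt
RPS5B: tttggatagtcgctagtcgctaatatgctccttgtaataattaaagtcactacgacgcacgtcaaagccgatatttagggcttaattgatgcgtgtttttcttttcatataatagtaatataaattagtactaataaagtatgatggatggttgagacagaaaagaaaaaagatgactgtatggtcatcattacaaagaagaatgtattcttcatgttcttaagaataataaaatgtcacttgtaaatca

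RPS10B and RPL3A each hold 3 site II matches, and in RPS10B the last base of the nearest one lies 47 bases before the gene start. In RPS5A the telo box lies next to a site II match, shares 1 base with it and has its last base 5 bases before the start. RPS5B holds none of these letters in the window. RPL3B, which did not pass the test below, holds 2 site II matches. A match describes the sequence and is not a measured binding site.

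Site II letters were common among the members. They occurred in 34 of 47 promoters (72.3%), against 5264 of 27443 protein-coding promoters of the same length (19.2%). The share was 18 of 22 (81.8%) in the large subunit and 16 of 25 (64%) in the small, 126 of 186 (67.7%) among the other listed cytosolic genes with RACK1C included, and 11 of 34 (32.4%) in nuclear genes for ribosomal proteins of the plastid. TGGGCC occurred in 55.3% of member promoters and 13.7% of all, and TGGGCT in 53.2% and 12.3%. The telo box was rarer, in 4 of 47 (8.51%) against 2.61% of all, and all 4 were small subunit genes: RPSAA, RPS5A, AT5G15200 and AT2G36160.

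**Figure D1:**
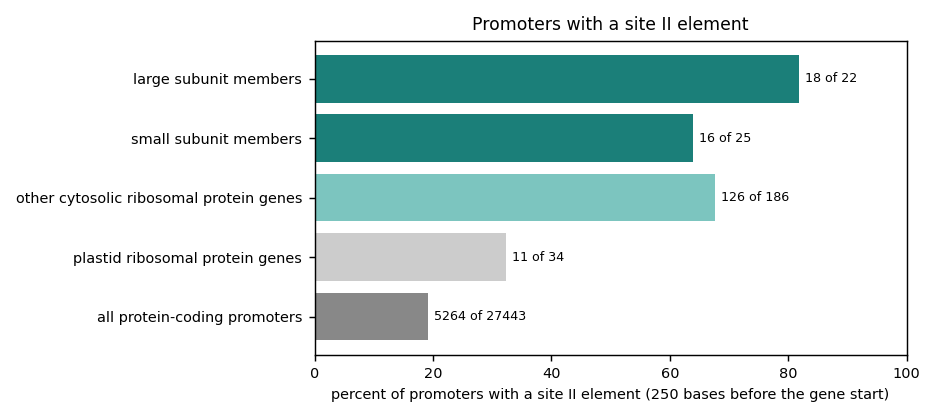
Bars give the percent of promoters (250 bases before the gene start) that hold a site II element on either strand, with the counts beside them. Large subunit members (81.8%) and small subunit members (64%) stand well above all protein-coding promoters (19.2%), and plastid ribosomal protein genes (32.4%) lie between.

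Ribosomal protein transcripts were modestly more abundant in uba2c. Of the 47 members, 29 rose (61.7%), none fell and 18 did not pass the test at a false discovery rate of 0.05 (limma, adjusted over all 22439 genes). Over all tested genes 17.4% were called higher and 17.4% lower. The rises ran from 1.1-fold to 1.63-fold, with a median of 1.17-fold, and the median log2 fold change of all 47 members was 0.18, against −0.00 for all tested genes. At an unadjusted p under 0.05 the count was also 29 higher and 0 lower. Of the 22439 tested genes, 10140 passed that looser limit in either direction. Counting tests on the recovered reads called the same 29 members higher, with edgeR calling 22.6% of its genes higher and DESeq2 11.6%.

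In most members the change, although small, exceeded the difference between replicates. Both uba2c libraries lay above both wild type libraries in 32 members and below them in 2. Of all 22439 tested genes, 7542 (33.6%) had both uba2c libraries above and 7741 had both below. The coefficient of variation between replicates of a member had a median of 1.91% in wild type and 2.97% in uba2c. Together the 47 members took 0.921% and 0.903% of the total in the wild type libraries and 1.04% in each uba2c library. The ratio of the mean shares was 1.14, and with 2 libraries in each group no exact test of this single value can reach significance.

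Ribosomal protein genes are highly expressed, and precise measurement of abundant genes makes small changes easier to call. Among all tested genes with a mean value of at least 1000, 36.0% were called higher. Of the 39 members at that level 28 rose, with a median log2 fold change of 0.20 against 0.06 for all genes at that level. Of the 8 members below it 1 rose. The level limit of 1000 was set after the values were seen.

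**Figure D2:**
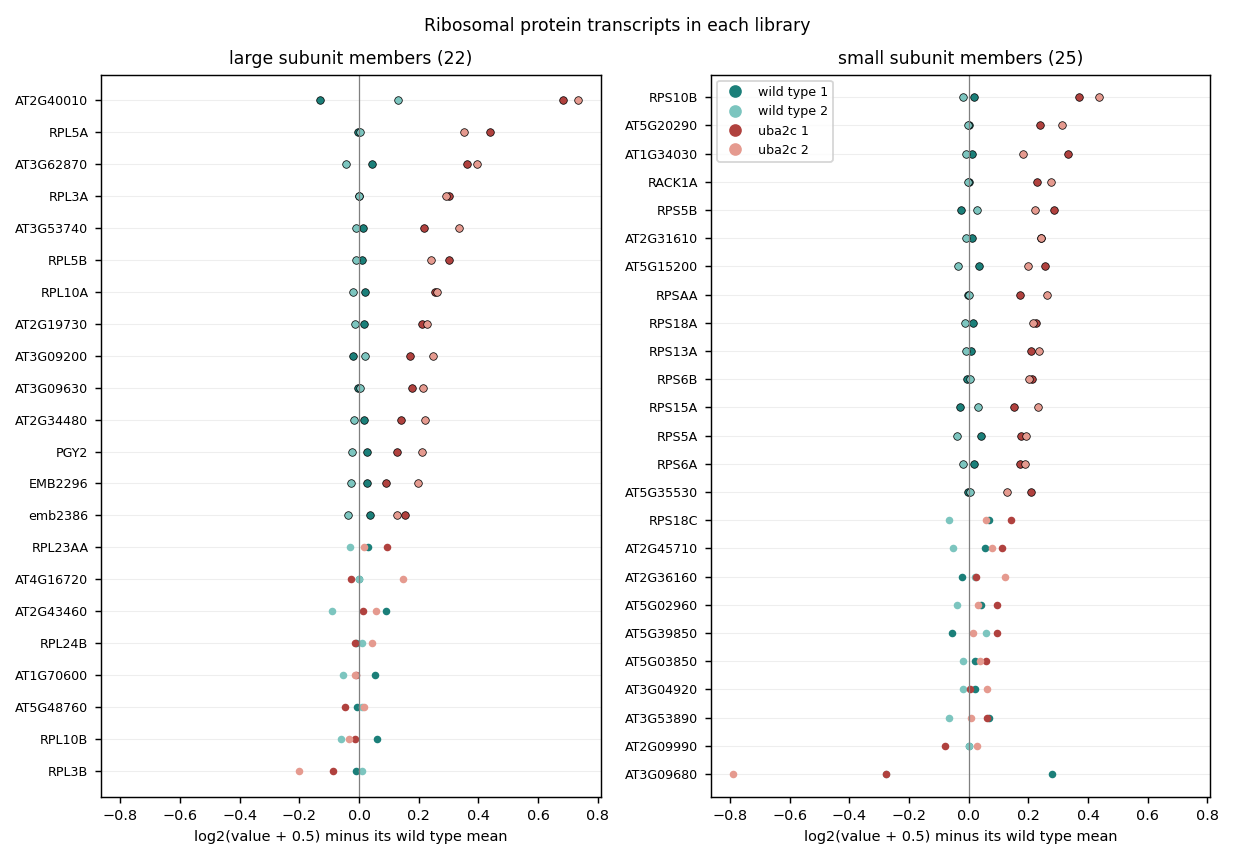
Each row is a member, and points give log2(value + 0.5) in each of the 4 libraries minus the member's wild type mean; points outlined in black belong to the 29 members that passed the test. In those 29 both uba2c points lie to the right of both wild type points, and the remaining 18 rows scatter around 0. For AT3G09680 the wild type 2 point is hidden by that of uba2c 1 at nearly the same value.

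The large and small subunits gave similar counts and medians. In the large subunit 14 of 22 members rose, with a median log2 fold change of 0.17, and in the small subunit 15 of 25 rose, with a median of 0.18. The summed value of the large subunit members over that of the small was 1.07 and 1.06 in wild type and 1.07 and 1.07 in uba2c, so the groups overlapped. Large subunit members went from 0.476% and 0.466% of the library to 0.539% and 0.537%. Small subunit members went from 0.445% and 0.437% to 0.505% and 0.501%.

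In the large subunit, RPL5A and RPL5B encode the protein that carries the small 5S ribosomal RNA into the subunit. RPL5A (AT3G25520, chromosome 3 from 9269277 to 9271465, minus strand) was at 6781 and 6820 in wild type and at 9222 and 8678 in uba2c. The uba2c libraries were both higher and did not overlap the wild type, a rise of 0.40 on the log2 scale (SE 0.038, limma adjusted p = 0.000166). RPL5B (AT5G39740) stood at 5001 and 4933 against 6123 and 5872, a 1.21-fold rise (adjusted p = 0.000835). Both genes of the pair thus rose, and RPL5A took 57.8% ± 0.34 of their joint value in wild type and 59.9% ± 0.32 in uba2c (SD, n = 2).

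RPL3, a protein close to the site of peptide bond formation, is encoded by a dominant and a weak gene. RPL3A (AT1G43170, chromosome 1 from 16266553 to 16268945, plus strand) was at 9237 and 9233 in wild type and 11388 and 11309 in uba2c, a 1.23-fold rise (log2 0.30, SE 0.03, limma adjusted p = 0.000232). RPL3B (AT1G61580, chromosome 1 from 22720560 to 22723152, minus strand) was at 330 and 335 against 313 and 289, with the uba2c libraries lower, and did not pass (log2 −0.15, adjusted p = 0.176). The RPL3B share of the joint value was 3.48% ± 0.036 in wild type and 2.58% ± 0.13 in uba2c. RPL3B overlaps a gene on the opposite strand, and no source used here says whether counting used strand.

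RPL10, needed for the joining of the subunits, followed the same pattern of a strong gene that rose and a weak one that did not pass. RPL10A (AT1G14320) was at 6793 and 6613 in wild type and 7992 and 8027 in uba2c, a 1.2-fold rise (limma adjusted p = 0.000698). RPL10B (AT1G26910) was at 222 and 204 against 211 and 208, and its groups overlapped (adjusted p = 0.855). RPL10A held 71.4% ± 0.67 of the joint value of the 3 RPL10 genes in wild type and 71.1% ± 0.022 in uba2c, and these overlapped, while the RPL10B share lay lower in uba2c, at 1.86% ± 0.023 against 2.27% ± 0.069. The third gene, RPL10C (AT1G66580), is no member and held 26.8% and 25.9% in the wild type libraries and 27% in each uba2c library.

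P0 forms the base of the stalk that recruits elongation factors. AT3G09200, annotated in this family (named L10 there), was at 7736 and 7948 in wild type and 8821 and 9297 in uba2c, a rise of 0.21 on the log2 scale (limma adjusted p = 0.00385). AT2G40010, of the same family, had the largest fold of all members, from 63.9 and 76.7 to 113 and 117 (1.63-fold, log2 0.71, SE 0.15, adjusted p = 0.0079). It is also the least abundant large subunit member, at 47.6 per kb of its longest annotated transcript in wild type. Its value is uncertain, since 42% of its 50-base stretches occur elsewhere in the genome and a gene overlaps it on the opposite strand.

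Other large subunit members added to the rise. AT3G62870, of the L7Ae family, was at 4800 and 4523 in wild type and 5978 and 6125 in uba2c, a 1.3-fold rise (limma adjusted p = 0.000261). AT3G53740, of the L36e family, was at 2864 and 2818 against 3307 and 3581 (1.21-fold, adjusted p = 0.00243). Smaller rises of log2 0.14 to 0.22 were measured for AT3G09630 (L4, which lines the exit tunnel of the nascent chain), AT2G34480 (L18ae), AT2G19730 (L28e), PGY2 (AT1G33140, L6 family, known for a role in leaf patterning), EMB2296 (AT2G18020, L2 family) and emb2386 (AT1G02780, L19e). For PGY2, 57.1% of the 50-base stretches also occur elsewhere in the genome, so reads can be shared. The most abundant large subunit gene per length was emb2386, at 7785 per kb in wild type, with 8857 and 8411 against 9603 and 9432 (1.1-fold, adjusted p = 0.0192).

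A set of 8 large subunit members did not pass. Besides RPL3B and RPL10B these were AT5G48760 (L13 family), AT4G16720 (L15e), RPL23AA (AT2G39460), RPL24B (AT3G53020), AT1G70600 (L18e/L15) and AT2G43460 (L38e). RPL24B, also known as STV1 and involved in the restart of translation after upstream reading frames, was at 3805 and 3860 in wild type and 3795 and 3947 in uba2c, a log2 fold change of 0.01. AT1G70600 was at 4132 and 3834 against 3954 and 3940, and its uba2c libraries lay within the wild type range. RPL24B and AT1G70600 are as abundant as many genes that rose, at 4425 and 4153 per kb in wild type, where the median large subunit member was at 3952 per kb. RPL3B and RPL10B, with the values given above, were far weaker.

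In the small subunit the lowest adjusted p of all members belonged to RPS10B (AT5G41520, chromosome 5 from 16609021 to 16610692, minus strand), one of the genes for S10. It was at 3639 and 3550 in wild type and 4646 and 4869 in uba2c, with both uba2c libraries higher (1.32-fold, log2 0.40, SE 0.038, limma adjusted p = 0.000152). AT5G52650, an S10 domain paralog that is no member, was at 2265 and 2272 against 2768 and 2889 (log2 0.32, adjusted p = 0.000584). The summed value of the 3 genes listed for S10 was 1.28 times the wild type mean.

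AT5G20290, of the S8e family, was the most abundant member per length, at 9674 per kb in wild type. It stood at 10819 and 10794 in wild type and at 12736 and 13417 in uba2c, a 1.21-fold rise (limma adjusted p = 0.000794). RACK1A (AT1G18080), a WD40 scaffold on the head of the small subunit that links ribosomes to signalling, was at 5709 and 5691 against 6678 and 6890, a 1.19-fold rise (adjusted p = 0.000905). RPSAA (AT1G72370, the P40 protein) was at 5785 and 5800 against 6519 and 6945 (1.16-fold, adjusted p = 0.00384). In these 3 genes the uba2c libraries were all above the wild type ones.

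RPS6, the small subunit protein phosphorylated through the TOR and S6 kinase pathway, has a pair of similarly abundant genes that rose by similar amounts. RPS6A (AT4G31700) was at 4043 and 3936 in wild type and 4498 and 4547 in uba2c (1.13-fold, limma adjusted p = 0.00497). RPS6B (AT5G10360) was at 4545 and 4579 against 5283 and 5247 (log2 0.21, adjusted p = 0.002). RPS6A held 46.6% ± 0.61 of the pair's value in wild type and 46.2% ± 0.31 in uba2c, and these overlapped.

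RPS5A, a gene whose promoter is widely used to drive expression in dividing cells, and its paralog RPS5B both rose. RPS5A (AT3G11940) was at 5226 and 4942 in wild type and 5739 and 5807 in uba2c (1.14-fold, limma adjusted p = 0.00732). RPS5B (AT2G37270) was at 1929 and 2003 against 2393 and 2292 (1.19-fold, adjusted p = 0.00269). RPS5A held 72.1% ± 1.3 of their value in wild type and 71.1% ± 0.79 in uba2c, and these overlapped. The promoter of RPS5A holds site II and telo box letters and that of RPS5B neither.

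The S3 proteins sit where messenger RNA enters the small subunit. AT2G31610 was at 3428 and 3376 in wild type and 4020 and 4025 in uba2c (1.18-fold, limma adjusted p = 0.00115), and AT5G35530 at 3241 and 3253 against 3749 and 3545 (1.12-fold, adjusted p = 0.0132). AT5G15200, annotated in the S4/S9 family, was at 7884 and 7514 against 9194 and 8829 (1.17-fold, adjusted p = 0.0028). Its weak paralog AT5G39850 was at 237 and 257 against 264 and 249, with overlapping groups (adjusted p = 0.664), and held 3.11% ± 0.27 of the joint value in wild type and 2.77% ± 0.032 in uba2c.

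RPS18A, known as POINTED FIRST LEAF for the leaf shape of its mutant, and 2 paralogs were all members. RPS18A (AT1G22780) was at 1893 and 1858 in wild type and 2192 and 2175 in uba2c (1.16-fold, limma adjusted p = 0.00318), and AT1G34030 at 1694 and 1673 against 2119 and 1907 (1.19-fold, adjusted p = 0.00825). RPS18C (AT4G09800), the most abundant of the 3, was at 3230 and 2947 against 3404 and 3214, overlapped between groups and did not pass (log2 0.10, adjusted p = 0.172). The RPS18C share lay below the wild type range, at 46.4% ± 1.3 in wild type and 44.1% ± 0.046 in uba2c; with 2 libraries each this share was not tested. RPS13A (AT4G00100), whose mutant also has pointed first leaves, and RPS15A (AT1G07770) rose by log2 0.22 and 0.19.

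A set of 10 small subunit members did not pass. Besides RPS18C and AT5G39850 these were AT2G36160 (S11 family), AT2G09990 (S9 family), AT3G53890 (S21e), AT3G09680 and AT5G02960 (S12/S23, the family of the protein that sets decoding accuracy), AT3G04920 (S24e), AT2G45710 (S27e) and AT5G03850 (S28e). AT5G02960, at 6985 per kb in wild type among the most abundant members, was at 5379 and 5084 in wild type and 5583 and 5341 in uba2c (log2 0.06, limma adjusted p = 0.277). Its paralog AT3G09680 was close to the detection limit, with 9 and 6 wild type reads and 6 and 4 uba2c reads. Its log2 fold change of −0.53 (SE 0.47, adjusted p = 0.412) is the lowest of the members and carries little information.

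The threshold fell in a gap. The member just inside it was EMB2296, at 5689 and 5478 in wild type and 5946 and 6393 in uba2c (log2 0.14, limma adjusted p = 0.0354), and the one just outside was RPS18C (log2 0.10, adjusted p = 0.172). Members that did not pass ranged from −0.53 to 0.10 on the log2 scale.

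**Figure D3:**
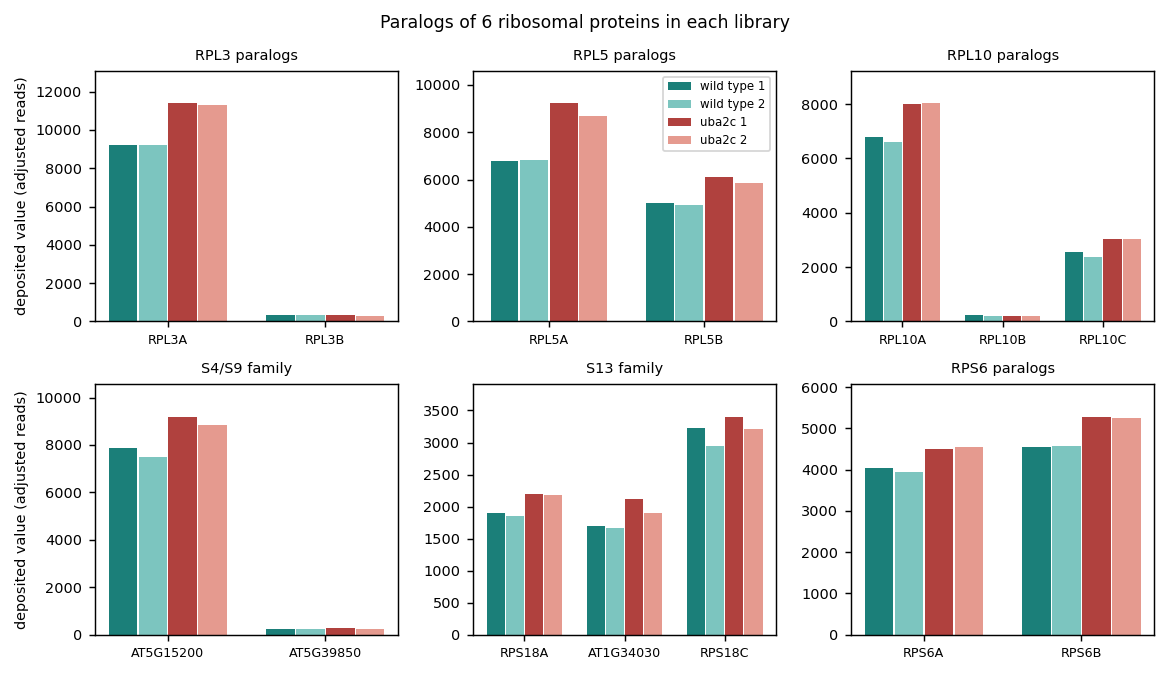
Bars give the deposited value (authors' scaled read count) of each gene in each library for 6 proteins with at least 2 members; axes start at 0. The strong gene of each of RPL3, RPL10 and the S4/S9 family is higher in both uba2c libraries while the weak gene (RPL3B, RPL10B, AT5G39850) stays near its wild type value; RPL10C (AT1G66580) is a paralog outside the 47.

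Summing all listed paralogs of a protein avoids the question of how reads are split between near-identical copies. The sum was higher in both uba2c libraries than in both wild type libraries for 30 of the 36 proteins with a member, 15 of 18 in each subunit, and lower for none. Of single tested genes 33.6% had both uba2c libraries above, and no such share was computed for sums of other gene families. The ratio of the uba2c to the wild type mean had a median of 1.13. The highest ratios were 1.28 for S10 and 1.27 for RPL5, and the lowest were 0.991 for the family of AT1G70600 and 0.995 for S28e. These sums are a description and were not tested.

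The members that rose tended to have longer transcripts and higher levels. Of the 24 members at or above the median transcript length of 1077 bases 21 rose, and of the 23 shorter ones 8 rose. Length and level went together in this split, with a median value of 5383 in the longer members and 2530 in the shorter. Across the 47 members Spearman's rho between log2 fold change and transcript length was 0.38, and 0.51 with the mean value; over all tested genes it was 0.12 with length. These describe genes of the same 4 libraries and were not tested, and the length limit was set after the values were seen. After a smooth trend on GC content and length was removed from each library, 37 of the 47 members rose, 16 large and 21 small, against 17.6% of all tested genes. The 8 added members were RPL23AA, RPS18C, AT2G43460, AT2G36160, AT3G53890, AT5G02960, AT3G04920 and AT5G03850.

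**Figure D4:**
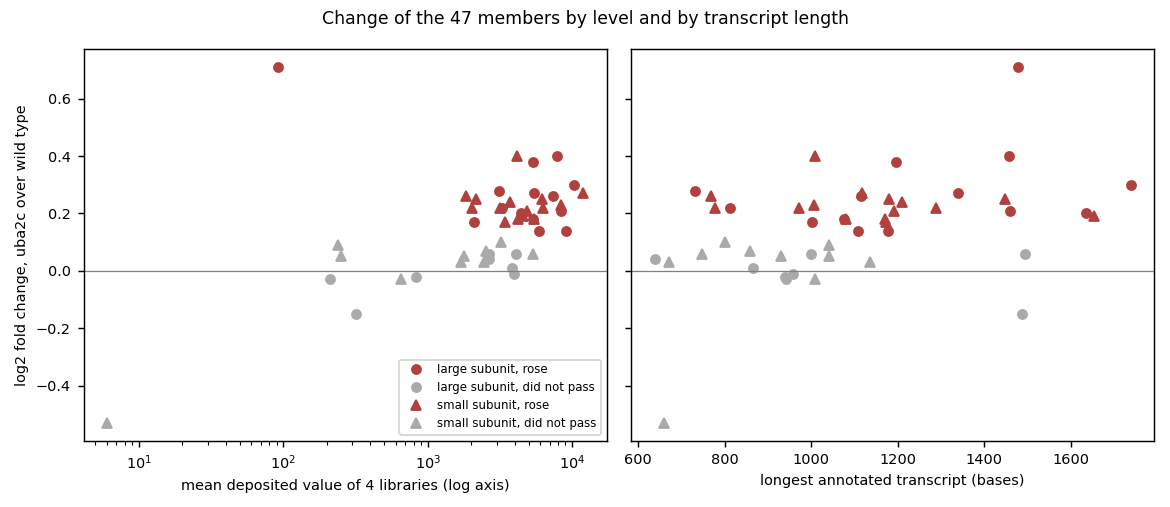
The log2 fold change of each member is plotted against its mean value over 4 libraries (left, log axis) and its longest annotated transcript in bases (right); circles are large and triangles small subunit members, red where the member rose. The red points lie mostly above a value of 1000 (28 of 29) and 21 of them have transcripts at or above the median length of 1077 bases.

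Of the 42 members with under 5% of their 50-base stretches found elsewhere 25 rose, and of the 5 with more 4 rose. Of the 35 members that in addition overlap no other gene 23 rose, with a median log2 fold change of 0.18. Members with site II letters rose in 23 of 34 cases and members without in 6 of 13. Those with the letters also had a higher median value (4216 against 2681) and a longer median transcript (1116 against 973 bases). A link between the letters and the change was not tested. Members rose on every chromosome, from 2 of 4 on chromosome 4 to 9 of 12 on chromosome 1.

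The other cytosolic ribosomal protein genes rose more often than they fell, with a smaller median than the members. Of 185 such genes 169 were tested, and 73 rose, 6 fell and 90 did not pass, with a median log2 fold change of 0.12. The share that rose was 43.2%, against 17.4% of all tested genes. The largest rises among those past the test were AT5G23900 (L13e, 2104 and 2084 in wild type, 2702 and 2711 in uba2c, log2 0.37), AT2G44120 (L30/L7, log2 0.35), AT4G25890 (an acidic stalk protein, log2 0.34), AT5G02870 (L4, log2 0.33) and AT5G52650 (S10, above). The largest falls past the test were AT3G02190 (L39e, 187 and 203 against 147 and 134, log2 −0.47), AT3G56020 (L41, log2 −0.32), AT3G06680 (L29e, log2 −0.31), AT2G25210 (L39e, log2 −0.23) and AT5G67510 (L26, log2 −0.21). RACK1C (AT3G18130), a paralog of RACK1A that the annotation does not name as ribosomal and that is outside these counts, was at 970 and 870 against 1288 and 1197 (log2 0.44, limma adjusted p = 0.00154); it is named after its values were seen. L39, L41 and L29 are among the smallest ribosomal proteins. The falls depended on the tool: edgeR called 86 rises and 10 falls, DESeq2 53 and 1, and limma after the GC and length correction 105 and 2. In limma without that correction, 66 of the 121 other cytosolic genes with a mean value of at least 1000 rose (54.5%) and 0 fell. Their median log2 fold change was 0.15, against 0.20 for the 39 members at that level, where 36.0% of all tested genes rose.

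The plastid ribosomal proteins are made from nuclear genes for the separate ribosome of the chloroplast, and of 33 tested 1 rose, 7 fell and 25 did not pass, with a median log2 fold change of −0.01. The share that fell was 21.2%, close to the 17.4% of all tested genes called lower and the 20.4% among those with a mean of at least 1000, and the share that rose was 3.03%. AT5G24490, listed as PSRP1, was at 12581 and 12464 in wild type and 10169 and 10675 in uba2c (log2 −0.27, limma adjusted p = 0.00088). PSRP4 (log2 −0.22), EMB3137 (log2 −0.21) and GHS1 (log2 −0.16), also on this list, fell as well. edgeR called 2 higher and 9 lower and DESeq2 0 and 6, while after the GC and length correction 6 rose and 6 fell. The uba2c to wild type ratio of their summed share was 0.97, while all 232 listed cytosolic genes went from 2.68% and 2.6% to 2.93% and 2.92%.

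Most genes of ribosome assembly and translation elongation that passed the test rose. Of 21 assembly factors 11 rose (52.4%, against 17.4% of all tested genes) and none fell, with a median log2 fold change of 0.21. At an unadjusted p under 0.05 the counts were likewise 11 and 0, and edgeR called 13 and 0 and DESeq2 6 and 0. DIM1A, a ribosomal RNA methylase, was at 520 and 555 in wild type and 764 and 758 in uba2c (log2 0.50, limma adjusted p = 0.000404). FIB1 (fibrillarin, log2 0.27), the pescadillo-like AT5G14520 (log2 0.34) and the DEAD box helicase PRH75 (log2 0.18) rose too. Of 14 elongation factors 9 rose (64.3%) and 1 fell, with a median log2 fold change of 0.20. Over all tested genes 17.4% rose, and 36.0% of those with a mean value of at least 1000. edgeR called 11 elongation factors higher and 2 lower, and DESeq2 9 and 1. AT5G60390, of the EF-Tu family, was at 20168 and 20526 against 25208 and 26312 (log2 0.34, adjusted p = 0.000218), and LOS1, an elongation factor G family protein, rose by log2 0.29, FBR12 (eIF-5A) by 0.22 and AT5G12110 (elongation factor 1-beta) by 0.91.

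Among regulators the median log2 fold change was 0.06. Of 11 genes of the TOR pathway and known ribosome regulators 5 rose (45.5%, against 17.4% of all tested genes) and none fell in limma. At an unadjusted p under 0.05 5 were higher and 1 was lower. edgeR called 5 higher and 1 lower and DESeq2 3 and 0, and after the GC and length correction 4 rose and 2 fell. TOR was at 1463 and 1481 in wild type and 1675 and 1686 in uba2c (log2 0.19, limma adjusted p = 0.00756). TCP20, a factor that binds site II elements, was at 156 and 176 against 245 and 212 (log2 0.46, adjusted p = 0.0154). EBP1 (AT3G51800, log2 0.18) and the transcription regulator AT5G13240 (listed as MAF1, log2 0.28) also rose.

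**Figure D5:**
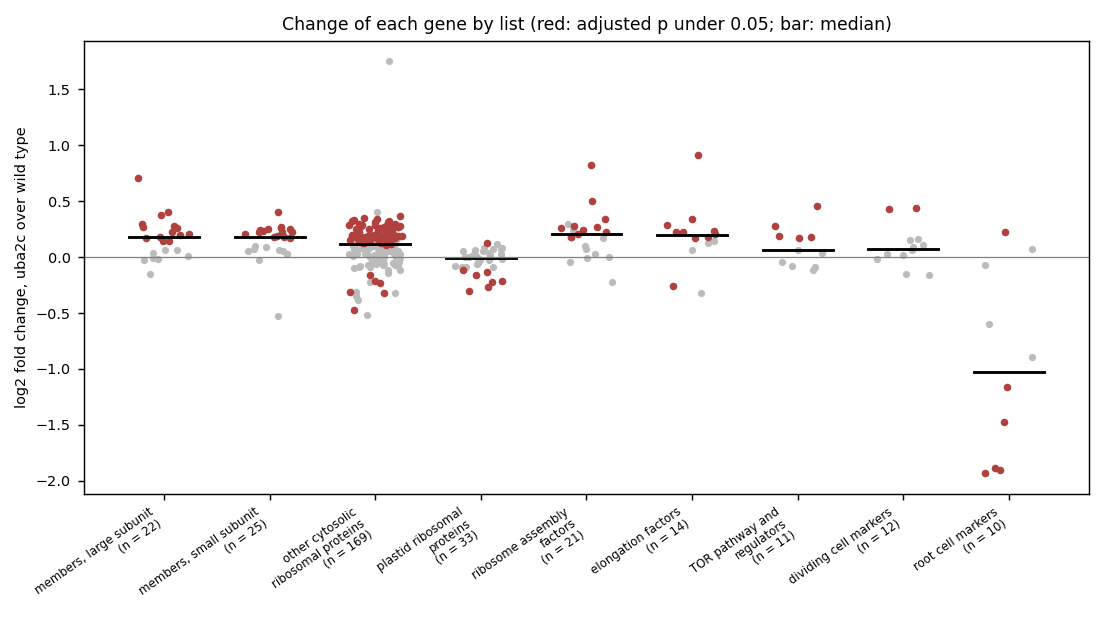
Points give the log2 fold change of each tested gene by list, red where the adjusted p is under 0.05, and bars give medians. The 2 member groups lie at medians of 0.17 and 0.18, below ribosome assembly factors at 0.21 and elongation factors at 0.20 and above the plastid ribosomal proteins at −0.01, and root cell markers lie lowest at −1.02.

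Markers of other cells in the seedling were measured beside these results. In bulk seedlings, a change in the share of a cell type and a change of RNA per cell cannot be told apart. Of 12 genes active in dividing cells 2 rose (16.7%, close to the 17.4% of all tested genes), SYP111 (KNOLLE, 310 and 354 against 442 and 458) and PCNA2 (283 and 258 against 352 and 377), and none fell; none was lower at an unadjusted p under 0.05, nor in edgeR or DESeq2, and 1 fell after the GC and length correction. Their summed value was 3177 and 3181 in wild type and 3377 and 3459 in uba2c. Of 10 root markers 5 fell (50%), 1 rose (10%) and 4 did not pass, where 17.4% of all tested genes fell and 17.4% rose. The sum of the 10 root markers went from 3112 and 3550 to 1601 and 1690. The root genes that fell, in limma, were PRP3 (log2 −1.93), EXPA7 (−1.89), LRX1 (−1.47), SHV2 (−1.90) and RHD6 (−1.16), all known for root hairs, while SCR of the root ground tissue rose (549 and 607 against 649 and 696, log2 0.22). DESeq2 and the GC and length correction called no root marker higher and the same number, 5, lower. No marker on either list was without reads, and their part in the ribosomal protein result was not tested.

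When limma was run with either uba2c library left out, no gene of the whole table passed, and so no member. The median log2 difference of the members from their wild type mean was 0.170 in uba2c replicate 1 and 0.196 in replicate 2. Over all tested genes it was −0.002 and −0.000. Without a wild type library limma called fewer members than with all libraries, and also fewer genes over the whole table. edgeR, which called the same 29 members with all libraries, called a similar number with any library left out, but fewer genes over the whole table.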

How the data were processed

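The deposited table holds a signal per gene, read counts that the authors adjusted to a common library size; the TAIR10 build and the tools HISAT2, featureCounts, edgeR, FastQC and SAMtools 1.9 are listed per the submitters' processing notes. The sources used here do not give the counting options, the use of strand or the treatment of reads that map to several places, so near-identical paralogs are uncertain. The labels do not say whether replicates came from separate plants, and the spread behind each p-value may therefore be technical. Replicate pairs differed by more than counting noise (chi-square over its degrees of freedom 1.49 and 1.97, against 24.9 to 26.2 between genotypes; over the 47 members alone 2.83 and 4.5) and were kept apart. The table holds 0 columns of other samples.

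The values were tested with limma 3.58.1 (R 4.3.3, trend, two-sided, log2(value + 0.5), group only, Benjamini-Hochberg at 0.05); fold changes on this scale understate low genes. Whole reads were recovered by undoing edgeR's quantile adjustment: 97.447% to 97.693% of values came out whole within 0.001, and 99.997% or more within 0.05. edgeR 4.0.16 (quasi-likelihood, TMM) on these reads called 9138 genes; DESeq2 1.42.0 and limma-voom were alternatives, as were pseudocounts, scaling, filter, block and left-out libraries. Values per kb use the longest annotated transcript. All 32548 identifiers matched TAIR10.1, and 22 members have a symbol there. The steps were tested on simulated data.

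The members, the lists and the tests were chosen with earlier results of these data known. By a fixed rule the text gives the 10 largest rises among members past the threshold, all paralog sets with 2 or more members, the extremes per kb and at the threshold, up to 4 genes of each other list by p, and 5 rises and 5 falls of the other cytosolic genes (60 genes); members beyond these are given to account for all 47, and RHD6, SCR and RACK1C, the level limit of 1000 and the classes by length, shared sequence and motif were chosen after their values were seen.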

Additional observations from a re-analysis of the deposited data

How the results depend on the processing

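The count of 29 members that rose was the same, with the same 29 genes, under pseudocounts of 0.1 and 5, TMM and median ratio scaling, edgeR on recovered reads or library totals, DESeq2, limma-voom and the replicate block (29, all shared); without a filter it was 28 and after the GC and length correction 37. Same-numbered libraries did not deviate together (r = 0.00827), so the number is not taken as a pairing; the block gave 14 large, 15 small and 88 other cytosolic calls. Leaving out 1 library in limma gave 0 to 17 member calls, 0 to 7 large, 0 to 10 small, 0 to 34 among the other cytosolic genes (79 with all libraries) and 0 to 20 over the remaining lists (42). In edgeR the ranges were 26 to 30, 11 to 14, 14 to 16, 58 to 80 and 36 to 43. Both zeros in limma came without a uba2c library, and there no gene of the whole table passed either. In each such limma fit the lone sample is assumed to vary like the remaining pair. This also holds where a wild type library was left out and members were called. The cause of the zeros was not tested. The median log2 fold change ranged from 0.147 to 0.214 in the large and from 0.170 to 0.213 in the small subunit over all settings. The median over all genes moved by 0.013 or less under any scaling, and no named result reversed. Depth limits AT3G09680 (4 to 9 reads).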
